A study of Mus musculus with 70 samples.

Results

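The interleukin-1 (IL-1) family and inflammasome genes followed here were 9 genes taken by symbol from the count tables of sorted tumor cells, out of 55487 named gene lines. They were the ligands Il1a, Il1b, Il18 and Il33, the receptor antagonist Il1rn, the receptor chains Il1r1 and Il1rap, and the inflammasome genes Nlrp3 and Casp1. They were taken by symbol and not by a threshold on a value, but earlier results of these data were known when they were picked. After a filter on low counts, 7 of the 9 were tested in CD45+ libraries on either day, 3 in CD45- libraries on day 3 and 4 in CD45- libraries on day 7. The members left out by the filter are given below by their counts.

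The study asked how mechanical tumor ablation by focused ultrasound changes the tumor and a distant, untreated tumor. Young adult C57BL/6 mice of both sexes carried B16F10 melanoma, a pigmented mouse line, on both flanks, and about 10 days after inoculation one tumor was partially ablated by histotripsy or the mouse was sham treated. Groups were the sham control (CON), the treated tumor (HT) and the untreated contralateral or abscopal tumor of treated mice (ABS), taken 3 or 7 days later and flow-sorted into CD45+ immune cells and CD45- cells, the fraction that holds the melanoma cells. Mice were not randomized, and the sources do not say which mice, or of which sex, stand behind a library, nor whether HT and ABS libraries with the same number came from the same mouse. There were 70 libraries. The CD45+ fraction held 4 CON, 6 HT and 7 ABS libraries on day 3 and 10 CON, 3 HT and 4 ABS on day 7. The CD45- fraction held 4, 7 and 7 on day 3 and 11, 3 and 4 on day 7. Mice per group are stated only as ranges. At the earlier time that range ends below the number of ABS libraries in both fractions, and of HT libraries in CD45- cells, so some libraries may share an animal. Nothing ties a library to a mouse, so p-values measure only the spread between libraries and may be too small where animals are shared.

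IL-1α and IL-1β bind the same receptor, built from IL-1R1 and the shared accessory chain encoded by Il1rap, and set off signaling through MyD88 and NF-κB; the antagonist encoded by Il1rn occupies that receptor without signaling. IL-1β and IL-18 are made as precursors that caspase-1 cuts after the sensor NLRP3 has assembled an inflammasome, so mRNA levels say nothing of how much active cytokine is present. IL-33 acts as an alarm signal that stromal and epithelial cells store in the nucleus and release when they are damaged, and activated myeloid cells are the main source of IL-1β in inflamed tissue.

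Library totals ran from 887798 to 3820705 counts, with 4 CD45+ day 7 libraries below 1000000. Levels are given as counts scaled to a library total of 1000000 (CPM) and differences as log2 fold changes with their standard error (SE) from the quasi-likelihood fit of edgeR, with p adjusted by Benjamini and Hochberg's method over all genes tested. The sort showed in Ptprc, which encodes CD45, at 651 to 1252 CPM in the CD45+ libraries and at 3 counts or fewer in each CD45- library. Melanoma markers summed to between 23402 and 36892 CPM in the CD45- libraries and to at most 2278 CPM in the CD45+ libraries. In sorted bulk cells, fewer cells of a type and less RNA per cell cannot be told apart.

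The upstream sequence of 4 of the members that rose in CD45+ cells of treated tumors, the cytokine and sensor genes, is shown first as background. Sequences are from RefSeq (GRCm38.p6), 250 bases up to the annotated start, written 5′ to 3′ on the gene's own strand. Capitals mark matches, on either strand, to the TATA box TATAAA, the AP-1 motif TGANTCA or the κB consensus.

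Il1a: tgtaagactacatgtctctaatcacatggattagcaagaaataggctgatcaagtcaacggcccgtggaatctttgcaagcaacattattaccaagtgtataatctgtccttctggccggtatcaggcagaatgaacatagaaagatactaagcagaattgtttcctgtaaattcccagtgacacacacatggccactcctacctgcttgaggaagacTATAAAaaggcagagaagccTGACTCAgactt

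Il1b: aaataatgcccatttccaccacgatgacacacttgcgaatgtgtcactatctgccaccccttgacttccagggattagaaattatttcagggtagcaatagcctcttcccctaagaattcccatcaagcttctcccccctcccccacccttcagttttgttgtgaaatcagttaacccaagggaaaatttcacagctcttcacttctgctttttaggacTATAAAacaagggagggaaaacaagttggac

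Il1rn: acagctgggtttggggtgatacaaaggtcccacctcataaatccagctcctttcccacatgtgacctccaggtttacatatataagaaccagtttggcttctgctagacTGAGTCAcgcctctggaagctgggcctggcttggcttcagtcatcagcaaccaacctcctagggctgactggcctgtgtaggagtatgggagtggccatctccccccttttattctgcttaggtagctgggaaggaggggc

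Nlrp3: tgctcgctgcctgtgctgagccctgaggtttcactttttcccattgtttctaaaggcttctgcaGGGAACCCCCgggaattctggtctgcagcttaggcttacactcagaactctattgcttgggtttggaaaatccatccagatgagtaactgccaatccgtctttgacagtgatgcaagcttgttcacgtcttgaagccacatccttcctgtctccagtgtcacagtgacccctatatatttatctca

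These lie at chr2:129309973-129310222 (Il1a, minus strand), chr2:129371140-129371389 (Il1b, minus strand), chr2:24336610-24336859 (Il1rn, plus strand) and chr11:59541319-59541568 (Nlrp3, plus strand). Il1a and Il1b each held a TATAAA beginning 32 and 31 bases before the start, and 12.4% of all 32851 promoter windows of that length held one. Il1a and the printed Il1rn window held TGANTCA, as did 6.75% of windows, beginning 12 and 141 bases before the start. Nlrp3 held the κB consensus 186 bases before the start, a match found in 7.25% of windows. Il1b held none of the last 2 motifs in this window. Il1rn has 3 RefSeq starts and Nlrp3 has 2, and the window with a match was printed. Il1rap, which also rose, held no match in its window. Among members with no call in those cells, Il1r1 held the κB consensus, and Il18 and Il33 held TATAAA. A C/EBP motif, TTNNGCAA, was also searched for and matched only Il1r1 and Il33 among the members. Matches were thus found in members that rose and in members that did not. These are letter matches only, and the counts carry no measure of factor binding.

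In the GRCm38 annotation the members were protein-coding genes at chr2:129299610-129309972 (Il1a), chr2:129364570-129371139 (Il1b), chr9:50554827-50581840 (Il18), chr19:29925114-29960718 (Il33), chr2:24336853-24351494 (Il1rn), chr1:40225080-40317257 (Il1r1), chr16:26581704-26730117 (Il1rap), chr11:59541568-59566956 (Nlrp3) and chr9:5298517-5307265 (Casp1). The antisense gene Gm14023 overlaps Il1a and had 10 to 148 counts per CD45+ library. The counting was not stated to use strand, so reads of that pair cannot be assigned with certainty. Genes overlapping the other members had at most 12 counts in any library.

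Where each member was expressed was asked by comparing CD45+ with CD45- libraries within each group. The IL-1 ligands, the antagonist and the inflammasome genes belonged to the CD45+ fraction and Il33 to the CD45- fraction. Il1a had 0 counts in all 36 CD45- libraries, which hold 87525003 counts together and so allow at most 0.0343 CPM, against 3300 counts over the 34 CD45+ libraries. Nlrp3 had 1 count in the 36 CD45- libraries and 12981 in the CD45+ libraries. Il1b and Il1rn were the most abundant members, with 244178 and 65332 counts over the CD45+ libraries and 27 and 14 over the CD45- libraries.

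For Il1b on day 3, the summed counts over all groups gave a level 13546-fold higher in CD45+ than in CD45- cells (95% exact interval 7921 to 25442, counting error only), and on day 7 the ratio was 13270 (7909 to 24274). Il1rn was 6159-fold higher on day 3 (3126 to 14268) and 7934-fold higher on day 7 (3645 to 21622). Casp1, with 57 counts in all CD45- libraries, was 75.2-fold higher in CD45+ cells on day 3 (51.5 to 115) and 75.3-fold higher on day 7 (52.6 to 112). Against the floor of 3 counts over the pooled day 3 CD45- libraries, Il1a was at least 921-fold higher and Nlrp3 at least 3542-fold higher in CD45+ cells.

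Il18 was the ligand whose level differed least between fractions among those higher in CD45+ cells. Its group means ran from 14.0 to 25.6 CPM in CD45+ and from 6.36 to 10.5 CPM in CD45- cells, and all 36 CD45- libraries held Il18 counts. The log2 fold change of CD45+ over CD45- was 0.84 ± 0.28 (SE) in day 3 CON (adjusted p = 0.010) and between 1.505 and 1.60 in the other 5 groups (highest adjusted p = 4.2e-04). The accessory chain Il1rap was higher in CD45+ cells in day 3 CON (1.34 ± 0.46, adjusted p = 0.011), day 3 HT (2.53 ± 0.32, adjusted p = 8.3e-09) and day 7 CON (1.43 ± 0.18, adjusted p = 2.4e-09). It did not pass in day 3 ABS, day 7 HT or day 7 ABS, where the log2 fold changes were 0.61, 0.39 and 0.65. In day 7 ABS same-numbered CD45+ and CD45- libraries deviated together in all 4 pairs (r from 0.11 to 0.31), and with the replicate number as a block Il1rap passed there (0.66, adjusted p = 0.047), so that 8 of 9 members passed in place of 7.

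Il33 ran the other way. It had 796 counts over the CD45- libraries and 30 over the CD45+ libraries, in which no library had more than 3. The log2 fold change of CD45+ over CD45- was lowest in day 3 HT at -5.10 ± 0.98 (adjusted p = 1.7e-05) and passed in every group but day 3 CON, where it was -2.82 ± 1.32 (adjusted p = 0.059). Il1r1, the signaling receptor chain, was sparse on both sides, with 98 counts in CD45+ and 274 in CD45- libraries. On day 7 its log2 fold change of CD45+ over CD45- was 1.84 ± 0.72 in CON (adjusted p = 0.019), -1.21 ± 0.97 in HT (adjusted p = 0.27) and -0.81 ± 0.80 in ABS (adjusted p = 0.37).

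Over all genes, between 65.2% and 80.4% passed the test in these 6 fraction contrasts (65.2% in day 3 CON, 76.9% in day 3 HT, 75.2% in day 3 ABS, 80.4% in day 7 CON, 65.6% in day 7 HT and 69.5% in day 7 ABS), so a pass between fractions is the common case. The members passed in 7 of 8, 8 of 8, 7 of 8, 9 of 9, 7 of 9 and 7 of 9, in that order. Il1a, Il1b, Il1rn, Nlrp3 and Casp1 had at most 7 counts in any CD45- library, and Il33 at most 3 in any CD45+ library. These members thus reached the count filter through a single fraction, so the direction and much of the difference were built into their tests. Their passes and directions are a description and cannot be weighed against the shares of all genes. By direction, genes higher in CD45+ cells were 39.9%, 39.8% and 42.1% of those tested in day 3 HT, day 3 ABS and day 7 CON, and genes lower in CD45+ cells were 37%, 35.3% and 38.3%, in the same order. The members split into 7 higher and 1 lower in day 3 HT, 6 higher and 1 lower in day 3 ABS, and 8 higher and 1 lower in day 7 CON.

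In the order of the 12 group means, each of Il1a, Il1b, Il1rn, Nlrp3 and Casp1 had its 6 CD45+ groups above its 6 CD45- groups, with a gap beyond 1 SD and with no overlap of ranges only at that border. Il33 showed the same single gap with the fractions exchanged. For Il18, Il1r1 and Il1rap no pair of neighbours in the order was apart by more than 1 SD. CD45+ day 3 HT was first in the order for Il1a, Il1b, Il1rn, Il1rap and Nlrp3, and last among the CD45+ groups for Il18 and Casp1.

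**Figure D1:**
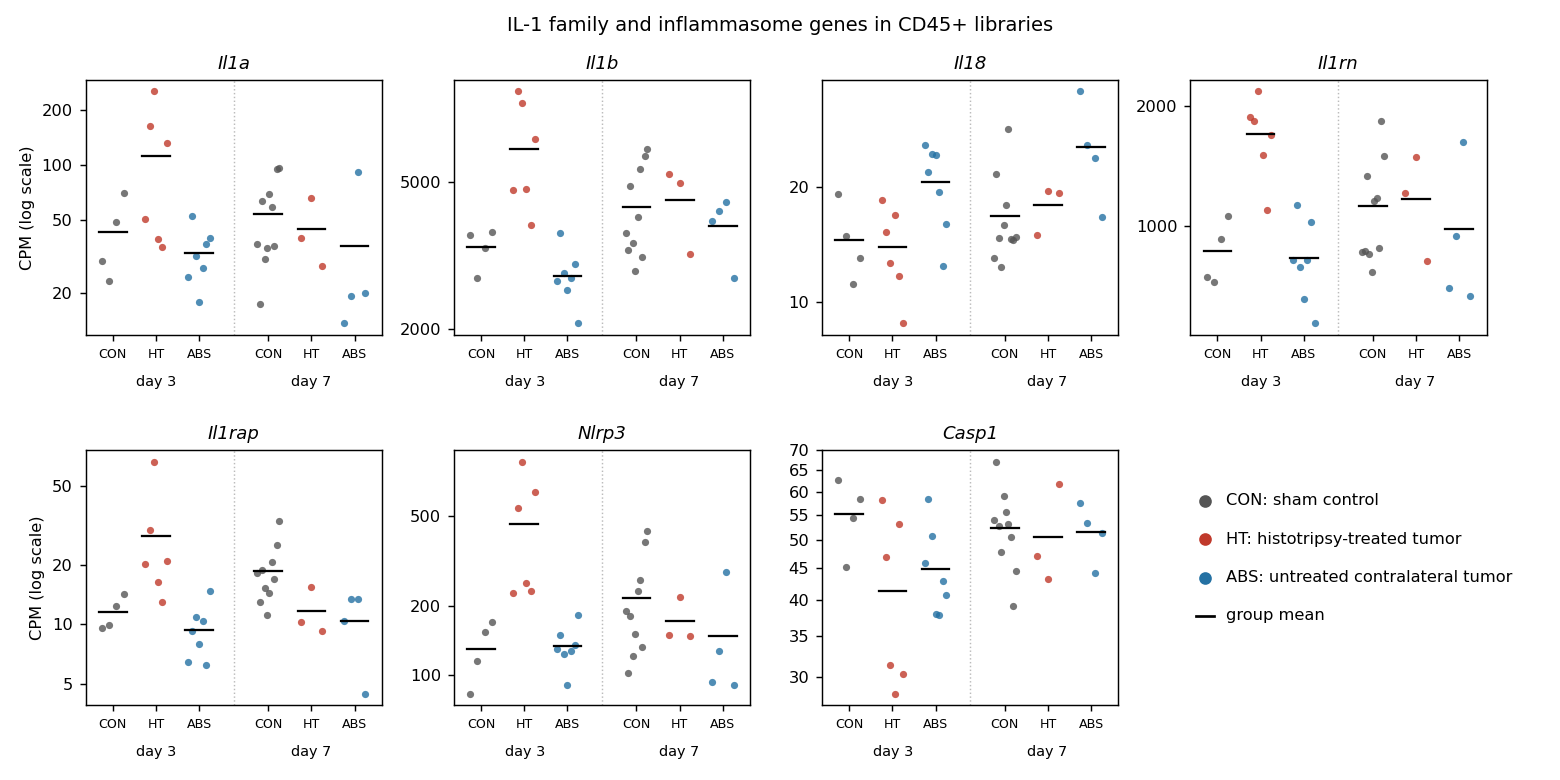
CPM of the 7 members tested in CD45+ libraries, on log axes, by group and day, with 1 point per library and a line at the group mean. On day 3 the 6 HT points of Il1b, Il1rn and Nlrp3 lie above all 4 CON points, while those of Il18 and Casp1 lie among or below them.

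The main comparison asked whether the treated tumor's CD45+ cells differed from sham on day 3. In this comparison 5 of the 7 members tested rose and none fell, against 6.21% of the 10264 genes tested that rose and 1.59% that fell (7.79% called in all). The 5 were Nlrp3, Il1a, Il1rap, Il1rn and Il1b. The median log2 fold change of the 7 was 1.23, against -0.01 over all genes tested. The ranges of HT and CON did not overlap for Il1b, Il1rn and Nlrp3, as for 2.34% of all genes tested in that direction.

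Il1b, the main secreted IL-1 agonist of myeloid cells, stood at 3587, 2756, 3312 and 3660 CPM in the day 3 CON libraries. The 6 HT libraries ran from 3827 through a median of 5653 to 8771 CPM, and the 7 ABS libraries from 2075 through 2758 to 3633 CPM. Every HT library was above every CON and every ABS library. The log2 fold change was 1.15 ± 0.26 for HT over CON (adjusted p = 0.0093) and 1.304 ± 0.21 for HT over ABS (adjusted p = 0.0012). The 2 highest HT libraries were replicates 2 and 3.

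Il1a, the agonist that is active as a precursor, was far below Il1b in counts. Its CON libraries held 29.8, 23.2, 49.1 and 70.7 CPM. The HT libraries held 35.7 CPM at the lowest, 91.4 at the median and 252 at the highest, and ABS libraries 17.9, 31.7 and 52.4 CPM. HT overlapped both other groups, with 3 of 6 HT libraries above all CON libraries. HT exceeded CON by 1.68 ± 0.51 on the log2 scale (adjusted p = 0.047) and ABS by 1.97 ± 0.43 (adjusted p = 0.0080).

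Il1rn rose beside the agonists. Its CON libraries stood at 741, 722, 926 and 1056 CPM, the HT libraries at 1092, 1758 and 2171 CPM (lowest, median, highest) and the ABS libraries at 567.8, 819 and 1127 CPM. All 6 HT libraries were above the CON libraries and 5 of 6 above the ABS libraries. HT was higher by 1.23 ± 0.24 over CON (adjusted p = 0.0040) and 1.19 ± 0.20 over ABS (adjusted p = 0.0013). Il1rn moved by about the same factor as Il1b. Il1rn counts per Il1b count were 0.259 ± 0.037 in CON (SD, n = 4), 0.288 ± 0.062 in HT (SD, n = 6) and 0.295 ± 0.028 in ABS (SD, n = 7), given as a description with no test. On day 7 the same ratio was 0.262 ± 0.027, 0.260 ± 0.035 and 0.253 ± 0.081 in CON, HT and ABS. Counts from 3′ libraries compare these genes only as counts.

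Among the receptor chains, Il1rap rose and Il1r1 was too sparse to test. Il1rap stood at 9.62, 9.92, 12.4 and 14.3 CPM in CON, at 13.0, 20.6 and 66.3 CPM in HT (lowest, median, highest) and at 6.20, 9.20 and 14.7 CPM in ABS. HT replicate 3 held the 66.3 CPM, and the next HT library held 29.8 CPM. HT was higher by 1.54 ± 0.42 over CON (adjusted p = 0.027) and 1.77 ± 0.36 over ABS (adjusted p = 0.0048). Il1r1 had 9 counts over the 4 CON, 21 over the 6 HT and 22 over the 7 ABS libraries of the day 3 CD45+ fraction.

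Nlrp3, the inflammasome sensor, showed the largest fold change of the members tested in HT against CON. Its CON libraries held 82.8, 115, 154 and 170 CPM, its HT libraries 230, 398 and 866 CPM (lowest, median, highest) and its ABS libraries 90.7, 130 and 183 CPM. The HT libraries did not overlap either group. HT was higher by 2.12 ± 0.39 over CON (adjusted p = 0.0027) and by 1.98 ± 0.31 over ABS (adjusted p = 9.5e-04), on the log2 scale.

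Casp1 and Il18, the protease and one of its substrates, did not pass. Casp1 stood at 62.6, 45.2, 54.3 and 58.4 CPM in CON and at 28.2, 39.2 and 58.2 CPM in HT (lowest, median, highest), with a log2 fold change of -0.21 ± 0.19 (adjusted p = 0.55). Il18 stood at 19.2, 14.9, 11.1 and 13.1 CPM in CON and at 8.77, 13.9 and 18.5 CPM in HT, with a log2 fold change of 0.18 ± 0.26 (adjusted p = 0.72). With the library totals as the only scaling, the median of all genes moved to -0.22 and Il18 to -0.04. Against ABS the log2 fold changes were -0.01 ± 0.17 for Casp1 (adjusted p = 0.98) and -0.43 ± 0.21 for Il18 (adjusted p = 0.29).

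**Figure D2:**
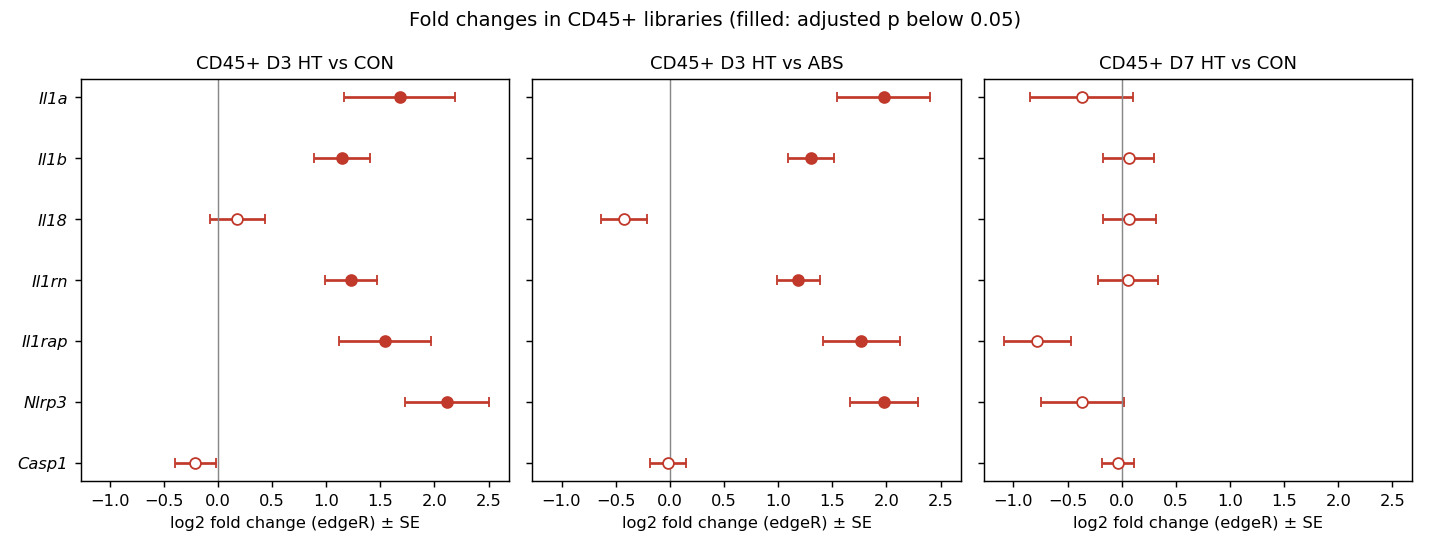
Log2 fold changes from edgeR with bars of 1 SE for the 7 members in CD45+ libraries, in 3 comparisons, with filled points where the adjusted p was below 0.05. Nlrp3, Il1a, Il1rap, Il1rn and Il1b are filled in both day 3 comparisons and open on day 7, and Casp1 and Il18 are open in all 3.

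HT was compared with the untreated tumor of treated mice as well, and the counts there share the HT libraries with the comparison above. Of the 7 members, 5 rose in HT over ABS and none fell, against 4.87% of genes that rose (5.44% called in all). In the untreated tumor on day 3, 0 of 7 members passed in ABS against CON by edgeR and 0 by DESeq2, and 0% of all genes passed by edgeR and 5 genes by DESeq2. Of the members 1 reached an unadjusted p below 0.05, as did 796 of 10264 genes. That member was Il18, at 12.4, 21.9 and 25.9 CPM in ABS (lowest, median, highest), with a log2 fold change of 0.61 ± 0.24 (unadjusted p = 0.020, adjusted p = 0.58).

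Markers of neutrophils moved in the same libraries. The summed level of 8 neutrophil markers, all detected, was 389 to 2871 CPM in day 3 CON, 851 to 2863 CPM in ABS and 1391 to 27278 CPM in HT, and 5 of the 8 rose in HT over CON. Of 9 monocyte and macrophage markers the sum was 3509 to 3866 CPM in CON and 1721 to 4303 CPM in HT, and 0 of the 9 passed by edgeR. Lymphoid markers moved the other way: the sum of 7 T cell markers was 1557 to 2053 CPM in CON, 1354 to 1695 CPM in ABS and 359 to 1351 CPM in HT, without overlap of HT and either group. In HT against CON, 2 of the 7 T cell, 1 of 6 NK cell and 1 of 7 dendritic cell markers fell. HT replicate 3 had the highest neutrophil sum and also 7290 CPM of hemoglobin and other erythroid markers. The 2 HT libraries whose neutrophil sum lay inside the range of the 11 CON and ABS libraries, replicates 1 and 5, held Nlrp3 at 230 and 235 CPM, against at most 183 CPM in those 11. The same 2 libraries held Il1b at 4755 and 3827 CPM, against at most 3660 CPM, and Il1a at 50.6 and 35.7 CPM, within the range of the others. Il1rn stood at 1870 and 1092 CPM there, against at most 1127 CPM, and Il1rap at 20.2 and 13.0 CPM, against at most 14.7 CPM, so that replicate 5 lay inside the range for both. The part of these changes in cell makeup in the rise of each member was not tested.

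**Figure D3:**
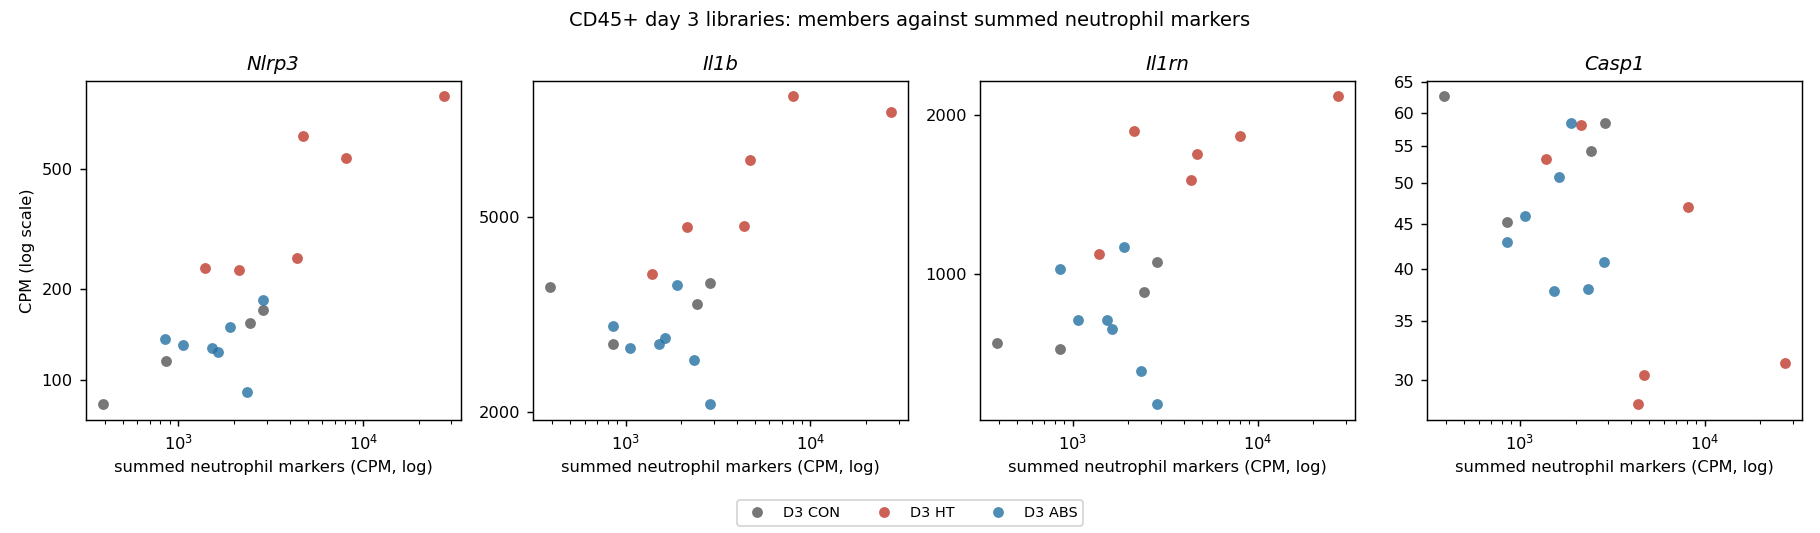
CPM of Nlrp3, Il1b, Il1rn and Casp1 against the summed CPM of 8 neutrophil markers in the 17 day 3 CD45+ libraries, both axes on a log scale. HT points sit above CON and ABS points for Nlrp3 and Il1b also where the marker sum is below 2871 CPM, and the 2 highest marker sums, 8069 and 27278 CPM, are HT libraries.

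Leaving out HT replicate 3 gave log2 fold changes over CON of 1.73 for Nlrp3 (adjusted p = 0.0036), 1.07 for Il1rn (adjusted p = 0.0061) and 0.97 for Il1b (adjusted p = 0.017). Il1a then stood at 1.14 (adjusted p = 0.13) and Il1rap at 0.94 (adjusted p = 0.052), so both lost their call. Over all alternatives run for HT against CON, adjusted p ranged from 3.5e-19 to 0.0215 for Nlrp3, from 9.3e-06 to 0.0199 for Il1rn, from 3.1e-04 to 0.0439 for Il1b, from 1.1e-05 to 0.080 for Il1rap and from 1.0e-11 to 0.13 for Il1a. Il1a passed in 6 of the 16 alternatives and Il1rap in 10 of 16, while Nlrp3, Il1rn and Il1b passed in all 16. Counting HT replicate 3, the call of Il1a was lost when any of 7 libraries was left out in turn and that of Il1rap when any of 5 was. Against ABS, all 5 members passed in each of the 19 alternatives run.

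On day 7 the question was whether these levels persisted. None of the 7 members passed in CD45+ HT against CON by edgeR or DESeq2, and 0% of 10817 genes passed by edgeR. An unadjusted p below 0.05 was reached by 1 member and by 341 of the 10817 genes. Il1b stood at 5255, 4976 and 3204 CPM in the 3 HT libraries, inside the 10 CON libraries at 2881, 3827 and 6148 CPM (lowest, median, highest). Nlrp3 stood at 150, 220 and 149 CPM in HT and at 102, 186 and 431 CPM in CON. Its log2 fold change was -0.37 ± 0.38 (adjusted p = 1.0).

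The member at the unadjusted p was Il1rap, at 10.2, 15.4 and 9.25 CPM in HT and at 11.2, 17.5 and 33.2 CPM in CON, which differ by -0.78 ± 0.31 on the log2 scale (unadjusted p = 0.019, adjusted p = 1.0). In ABS against CON 0 of 7 passed by either tool, as did 0% of all genes by edgeR, and 2 of 7 reached an unadjusted p below 0.05, as did 806 of 10817 genes. Those were Il18, at 35.7, 25.9, 23.9 and 16.7 CPM in ABS against 12.3, 14.8 and 28.5 CPM in CON (log2 fold change 0.68 ± 0.22, adjusted p = 0.53), and Il1rap, at 10.3, 13.4, 13.4 and 4.46 CPM in ABS (-0.79 ± 0.29, adjusted p = 0.58). In HT against ABS 0 of 7 members and 0% of all genes passed by edgeR, and 0 of 7 by DESeq2. Il18 alone of the members had an unadjusted p below 0.05, as did 291 of 10817 genes.

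The difference between days was tested directly, as the HT effect over CON on day 7 minus that on day 3. It was below 0 and passed for 2 of 7 members, Nlrp3 and Il1rap, against 2.68% of 11251 genes called. It was -2.45 ± 0.60 for Nlrp3 (adjusted p = 0.020) and -2.29 ± 0.56 for Il1rap (adjusted p = 0.020). It was -2.01 ± 0.76 for Il1a (adjusted p = 0.17), -1.15 ± 0.39 for Il1rn (adjusted p = 0.11) and -1.06 ± 0.36 for Il1b (adjusted p = 0.11), so the day difference of these 3 did not pass. The calls of Nlrp3 and Il1rap were lost without day 7 HT replicate 1 (adjusted p = 0.10 for each) or replicate 3 (0.088 and 0.095), which leaves 2 HT libraries, and adjusted p over all alternatives ran up to 0.18 and 0.105.

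In CD45- cells the members that could be followed were Il33, Il1r1, Il18 and Il1rap. On day 3 Il33 stood at 4.94, 9.39, 3.45 and 2.50 CPM in CON, at 1.10, 10.4 and 63.1 CPM in HT (lowest, median, highest) and at 0, 6.54 and 9.40 CPM in ABS. HT replicates 1 and 3, at 56.8 and 63.1 CPM, stood apart from the other 5 HT libraries, the highest of which held 12.4 CPM. HT exceeded CON by a log2 fold change of 2.15 ± 0.88 (unadjusted p = 0.023, adjusted p = 0.37) and ABS by 2.04 ± 0.69 (adjusted p = 0.17). None of the 3 members tested passed in any of the 3 day 3 comparisons by edgeR or DESeq2, and DESeq2 gave no adjusted p for them in ABS against CON. Of 10921 genes, edgeR called 0.0916% in HT against CON (0.0733% higher, 0.0183% lower), 0% in ABS against CON and 0.147% in HT against ABS (0.0549% lower). Il33 was the member at an unadjusted p below 0.05 in the 2 with HT, where 1154 (against CON) and 1473 (against ABS) of 10921 genes were.

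Il1r1 on day 3 was held by the same 2 libraries. Its counts were 29 or fewer in every CD45- day 3 library except HT replicate 3, which had 95, equal to 38.0 CPM. HT replicate 1 followed with 14.3 CPM, and the remaining libraries of all groups ran from 0 to 5.70 CPM. Il1r1 was not tested on day 3 because too few libraries passed the count filter.

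On day 7 the abscopal tumor was the group with a called member. Il33 stood at 26.7, 20.1, 7.11 and 3.81 CPM in the 4 ABS libraries, at 2.27, 4.20 and 20.5 CPM in HT and at 1.54, 3.40 and 4.80 CPM in CON (lowest, median, highest of 11). Of the 4 ABS libraries, 3 lay above every CON library. ABS exceeded CON by 2.16 ± 0.43 on the log2 scale (adjusted p = 0.028), and Il33 was 1 of 4 members tested to pass, against 0.291% of 10996 genes. For HT over CON it was 1.38 ± 0.53 (unadjusted p = 0.015, adjusted p = 0.64).

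Il1r1 on day 7 stood at 9.75, 5.04, 0.356 and 1.90 CPM in ABS, at 1.30, 0.420 and 10.5 CPM in HT, and at 0, 0.345 and 1.92 CPM in CON (lowest, median, highest). Only HT replicate 3 (20 counts) and ABS replicates 1 and 2 (30 and 12 counts) held 10 counts or more, and no CON library held more than 4. Il1r1 thus passed the count filter only through the groups set against CON, so its tests against CON are a description and no support for a rise. Il1r1 missed the threshold in ABS over CON, higher there by 3.23 ± 0.79 on the log2 scale (adjusted p = 0.076), and in HT over CON, with a fold of 8.001 (adjusted p = 0.40). Without HT replicate 3 the log2 fold change for HT over CON was 1.07 (adjusted p = 0.93). In HT against CON 0 of 4 members passed by edgeR or DESeq2, with 2 at an unadjusted p below 0.05, and in HT against ABS 0 of 4 passed with 0 at an unadjusted p below 0.05. In both comparisons 0% of all genes passed, and 669 and 741 of 10996 genes had an unadjusted p below 0.05.

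**Figure D4:**
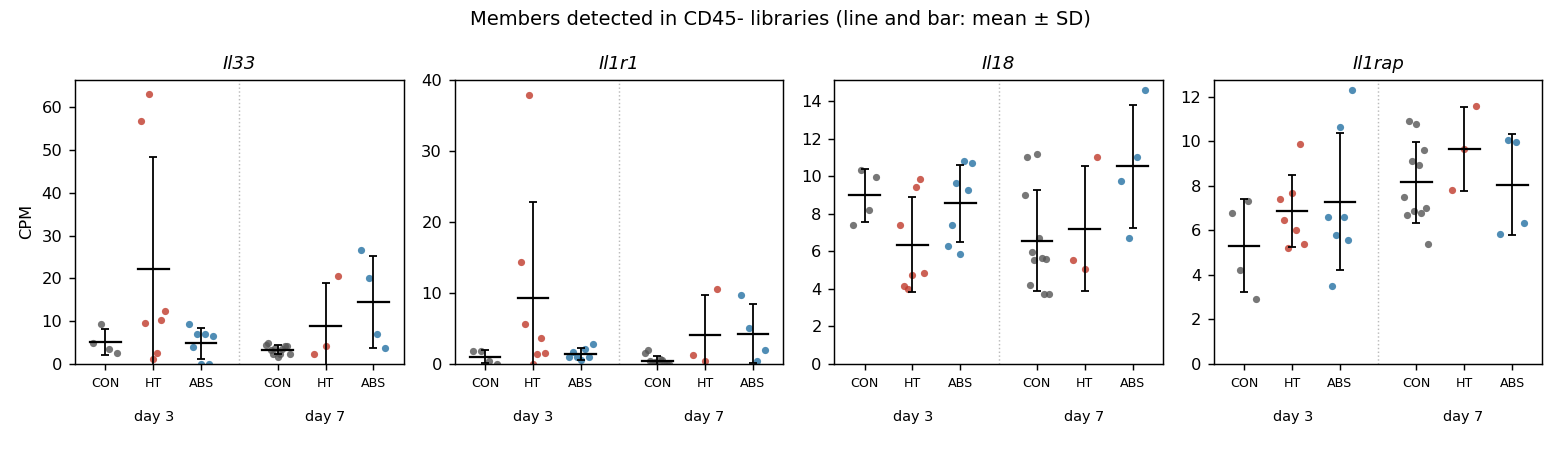
CPM of Il33, Il1r1, Il18 and Il1rap in the CD45- libraries by day and group, with 1 point per library and the mean ± SD, bars that reach below 0 being cut at the axis. Il33 and Il1r1 are high in a few HT and ABS libraries, while Il18 and Il1rap stay below 15 CPM in every library.

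The libraries with high Il33 and Il1r1 were those with high fibroblast markers. The sum of 6 fibroblast markers, all detected and including the collagens Col1a1, Col1a2 and Col3a1, was 17.1 to 1047 CPM in day 3 CON, 56.3 to 13338 CPM in HT and 141 to 814 CPM in ABS, and on day 7 16.9 to 694, 85.3 to 4029 and 70.1 to 2478 CPM. It was over 1000 CPM in 5 of 7 HT and 1 of 4 CON libraries on day 3 and in 1 of 3 HT and 2 of 4 ABS libraries on day 7. Without these libraries, a choice made after seeing the data, the log2 fold change of Il33 was -0.89 (adjusted p = 0.999) for HT over CON on day 3 and -1.54 (adjusted p = 0.55) for HT over ABS. Both values leave out 5 of the 7 day 3 HT libraries. For ABS over CON on day 7 the log2 fold change of Il33 was 0.75 ± 0.40 (adjusted p = 0.63), with 2 ABS libraries left. The libraries left out were also those high in Il33, so lower values were built into this choice. The share of fibroblasts in the sorted cells was not measured, and its part in the Il33 and Il1r1 levels was not tested.

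The day 7 call of Il33 was lost when single libraries were left out. The log2 fold change was 1.66 (adjusted p = 0.71) without ABS replicate 1 and 1.99 (adjusted p = 0.12) without ABS replicate 2. Without any 1 of 8 CON libraries it was 2.08 to 2.20, close to the 2.16 with all libraries, with adjusted p between 0.052 and 0.063. Over all its alternatives it ran from 0.75, without the libraries rich in fibroblast markers, to 2.44, and it passed in 9 of 21.

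**Figure D5:**
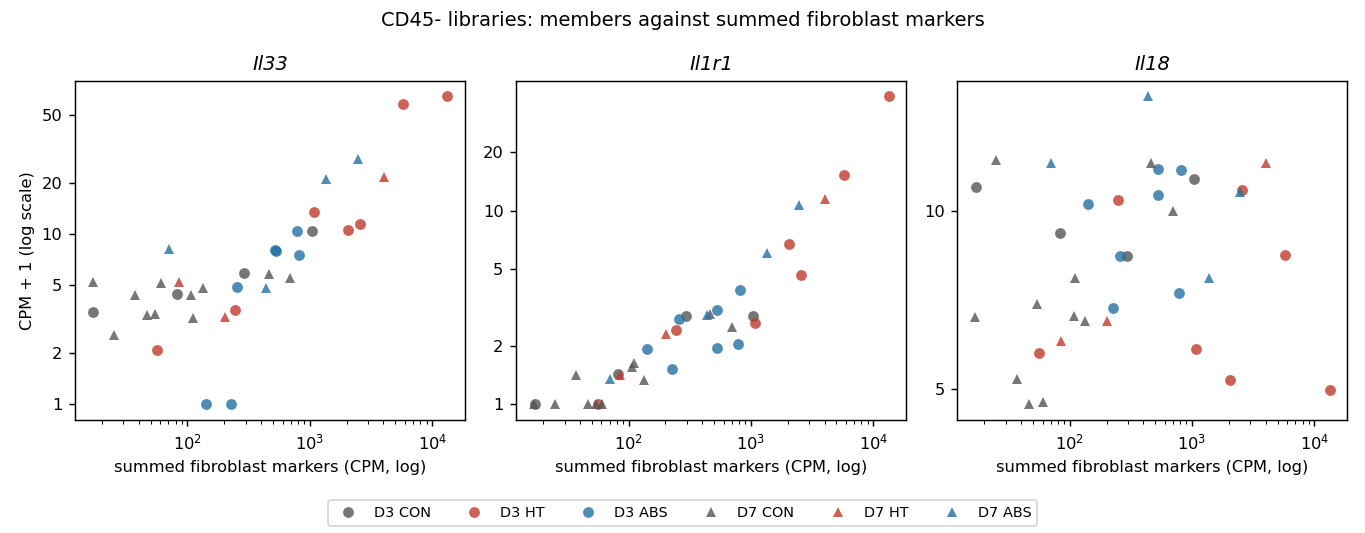
CPM + 1 of Il33, Il1r1 and Il18 against the summed CPM of 6 fibroblast markers in the 36 CD45- libraries, both axes on a log scale. The libraries with the highest Il33 and Il1r1, up to 63.1 and 38.0 CPM, are at the right, where the marker sum is over 1000 CPM, and Il18 shows no such order.

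Il18 and Il1rap in CD45- cells did not pass in any of the 6 comparisons. Il18 stood at 7.40, 10.3, 8.19 and 9.98 CPM in day 3 CON and at 3.996, 4.85 and 9.87 CPM in HT (lowest, median, highest), a log2 fold change of -0.51 ± 0.26 (adjusted p = 0.51). On day 7 it stood at 9.75, 6.72, 11.03 and 14.6 CPM in ABS and at 3.72, 5.66 and 11.2 CPM in CON, a log2 fold change of 0.64 ± 0.29 (adjusted p = 0.48). Il1rap ran from 2.91 to 12.3 CPM over all 36 libraries, with log2 fold changes between -0.13 and 0.51 in the 6 comparisons.

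Whether the HT effect itself differed between fractions was tested as an interaction. By edgeR or DESeq2, 0 of 8 members on day 3 and 0 of 9 on day 7 passed, against 1.92% and 0% of all genes by edgeR. An unadjusted p below 0.05 was reached by 1 and 2 members, and by 2000 of 12392 and 623 of 12863 genes. For Il1a and Nlrp3 that day 3 interaction carries no information, since every CD45- library was at 0. On day 7 Il1a was again at 0 in every CD45- library and Nlrp3 had 1 count in them. Il1b had 2 and 8 CD45- counts in day 3 CON and HT, and Il1rn 0 and 6. With so few counts these interactions could hardly pass, so the lack of calls does not show a like effect in both fractions. For Il1rap the day 3 HT effect was higher in CD45+ than in CD45- cells by 1.19 ± 0.58 on the log2 scale (unadjusted p = 0.046, adjusted p = 0.30), and on day 7 it was lower by 1.03 ± 0.39 (interaction -1.03, adjusted p = 0.89). For Il18 the day 3 interaction was 0.70 ± 0.37 (adjusted p = 0.34).

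The rest of the pathway was read from 5 lists of 63 further genes, of which 51 were tested in day 3 CD45+ cells. In HT over CON 16 rose and none fell, where 6.21% of all genes tested rose, with a median log2 fold change of 0.41 over the 51 against -0.01 over all genes. In HT over ABS 16 rose and 1 fell, where 4.87% of all genes rose. Since these genes were listed with earlier results known, their counts are a description. By list, in HT over CON, 8 of 14 tested IL-1 target genes rose, 3 of 16 inflammasome and pore genes, 2 of 14 receptor signaling genes, 2 of 5 other receptors and 1 of 2 other ligands and binding proteins.

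Il1r2, the decoy receptor that binds IL-1 without signaling, rose with the agonists. It stood at 167 to 225 CPM in CON, 280 to 1206 CPM in HT and 171 to 327 CPM in ABS, with HT above every CON library and log2 fold changes of 1.86 ± 0.34 over CON (adjusted p = 0.0029) and 1.64 ± 0.28 over ABS (adjusted p = 0.0014). Its HT effect was smaller on day 7 than on day 3 by a log2 difference of -2.07 ± 0.45 (adjusted p = 0.010). The IL-33 receptor Il1rl1 rose in HT over CON (1.81 ± 0.56, adjusted p = 0.049), from 2.86 to 7.72 CPM in CON to 2.50 to 26.0 CPM in HT, and did not pass over ABS (0.77 ± 0.42, adjusted p = 0.35). The IL-18 receptor chain Il18r1 was lower in HT than in ABS (-0.64 ± 0.19, adjusted p = 0.046) and did not pass against CON (-0.45 ± 0.21, adjusted p = 0.20), and the IL-18 binding protein Il18bp stood at -0.18 ± 0.42 against CON (adjusted p = 0.84).

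Among the inflammasome genes, Casp4, which encodes the mouse caspase-11 of the noncanonical pathway, rose in HT over CON by 1.17 ± 0.24 (adjusted p = 0.0057), from 50.4 to 78.3 CPM in CON to 83.7 to 159 CPM in HT. Mefv, which encodes the sensor pyrin, rose by 1.70 ± 0.33 (adjusted p = 0.0041). The adaptor Pycard stood at -0.26 ± 0.17 (adjusted p = 0.38) and the pore protein Gsdmd at 0.12 ± 0.21 (adjusted p = 0.78), so neither passed. Of the 4 called list genes with the smallest p in HT over CON, beside Il1r2 and Mefv, the acute-phase gene Saa3 rose by 3.41 ± 0.66 (adjusted p = 0.0040) and Csf3, the granulocyte growth factor, by 2.55 ± 0.51 (adjusted p = 0.0048). Over ABS, the neutrophil chemokine Cxcl2 rose by 2.16 ± 0.41 (adjusted p = 0.0033), and Nfkbia, the NF-κB inhibitor that is itself a target, by 1.21 ± 0.22 (adjusted p = 0.0023).

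By edgeR, 0 of 51 list genes and 0% of all genes passed in each day 7 CD45+ comparison. An unadjusted p below 0.05 was reached by 2 (HT against CON), 8 (ABS against CON) and 2 (HT against ABS) of the 51. Of all 10817 genes, 341, 806 and 291 reached it, in that order. In day 3 CD45- cells 0 of 32 passed, with 6, 2 and 10 at that level in the same order. Of all 10921 genes there, 0.0916%, 0% and 0.147% passed, and 1154, 567 and 1473 were at that level. In day 7 CD45- cells, 2 of 30 list genes tested rose in ABS over CON, where 0.264% of 10996 genes rose. Both were among the 5 IL-1 target genes tested, the chemokines Ccl2 (3.57 ± 0.66, adjusted p = 0.028) and Cxcl1 (3.19 ± 0.69, adjusted p = 0.043). The highest ABS library of Ccl2 held 18.5 CPM and that of Cxcl1 25.04 CPM, against at most 2.23 and 4.80 CPM in CON. No CON library reached the filter's 10 counts for Ccl2. It was thus tested only through HT and ABS libraries, so its call is a description. These 2 rest on few counts, 107 and 131 over the 4 ABS libraries, of which 2 exceeded 1000 CPM of fibroblast markers. The part of those cells in the 2 results was not tested.

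The genes whose library-to-library pattern was most like a member were found by Pearson's r of log2(CPM + 1) after each group mean was subtracted, and are given as a description. Over the 34 CD45+ libraries, Il1b was most like Olr1 (r = 0.83), Marcksl1 (0.82) and Il1rn (0.81), and Il1rn most like Ccl3 (0.85), F10 (0.82) and Il1b, so the agonist and its antagonist were among each other's 3 nearest of 8235 genes. Il18 followed Gmip (0.69), Rasgrp4 (0.68) and Adam15 (0.67). Over the 36 CD45- libraries, Il33 was most like Cd34 (0.86), Timp1 (0.86) and Fstl1 (0.85), and Il1r1 most like Fbln2 (0.93), Col5a2 (0.92) and Postn (0.92), of which Fbln2, Col5a2 and Postn encode matrix proteins. Libraries share depth and cell makeup, which enter every such r.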

How the data were processed

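The deposited counts were made by the authors from 3′ QuantSeq libraries of flow-sorted cells: reads were trimmed (Trim Galore 0.5.0), aligned to GRCm38 (STAR 2.6.0), collapsed by unique molecular identifier and counted per gene with featureCounts, as whole numbers with no normalization. The unnamed line of column totals in the CD45+ tables was left out. Groups and replicate numbers are those of the sample labels. For each fraction and day, genes passing filterByExpr (minimum count 10) were scaled by TMM and fitted with all 3 groups in edgeR 4.0.16 (quasi-likelihood test; R 4.3.3), at an adjusted p threshold of 0.05; contrasts between fractions or days used joint fits. Over all 22 comparisons, DESeq2 1.42.0, library totals, no filter, only the groups compared, deeper libraries, a replicate block and leaving out each library were alternatives. The code was tested on simulated data. Numbers were taken to pair 2 groups where every same-numbered pair deviated together with r over 0.1. Over all pairs r ran from -0.37 to 0.45 within fractions and from -0.042 to 0.40 between them, and only CD45+ and CD45- day 7 ABS met this. No library repeated another. Always named were the 9 members, Il1r2, Il1rl1, Il18r1, Il18bp, Pycard, Gsdmd and Casp4, up to 4 called list genes of smallest p per comparison, and for 6 members the 3 most like genes of at least 10 CPM, of which those for Il1rap are not reported here. The members and lists were chosen with earlier results of these data known. Counting intervals and floors cover counting error only. Library totals of 887798 to 3820705 counts set the precision.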

Additional observations from a re-analysis of the deposited data

Results flagged for a closer look

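Over 51 groups of 4 to 10 libraries in which a member was followed, 3 held a library far from the others, where chance gives about 1 in 20. Il1a stood at 91.4 CPM in CD45+ day 7 ABS replicate 3, against 20.1 CPM in the next library. Il1rap stood at 66.3 CPM in CD45+ day 3 HT replicate 3, the library with the highest neutrophil and erythroid marker sums. Il1r1 stood at 38.0 CPM in CD45- day 3 HT replicate 3, the library with the highest fibroblast marker sum.

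In CD45+ cells the HT effect over CON was smaller on day 7 than on day 3 for Nlrp3 (-2.45 on the log2 scale) and for Il1rap (-2.29), by a test of the difference itself. The day 7 arm rests on 3 HT libraries.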

How the results depend on the processing

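In 16 of the 22 comparisons the number of called members was within 1.5 times the reported number, or at 0 as reported, under every alternative run. With no filter on low counts it was 2 in place of 0 in CD45- day 3 HT against CON and in HT against ABS, 1 in place of 0 in CD45- day 7 HT against CON, 2 in place of 1 in CD45- day 7 ABS against CON and 5 in place of 2 for the CD45+ day difference. With the replicate number as a block it was 0 in CD45- day 7 ABS against CON and for the CD45+ day difference, and the log2 fold change of Nlrp3 in CD45+ day 7 HT against CON was 0.12 in place of -0.37. Other than for day 7 ABS between fractions, the numbers did not mark pairs by the check. The fractions hold unequal numbers of libraries in day 3 HT (6 CD45+, 7 CD45-) and day 7 CON (10 and 11), so a number need not mark the same tumor in both. With only the compared groups in the fit, 3 members passed in CD45+ day 3 HT against CON. Leaving out 1 library at a time gave 0 to 2 called members in CD45- day 7 ABS against CON, 3 to 5 in CD45+ day 3 HT against CON and 0 to 4 for the CD45+ day difference.

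Without the libraries rich in fibroblast or melanoma markers, chosen after seeing the data, 0 members passed in CD45- day 7 ABS against CON. Il33 turned to -0.89 (day 3 HT against CON), -1.54 (HT against ABS) and 0.91 (CD45- day difference), and its CD45+ over CD45- difference in day 3 HT fell to -1.54 (adjusted p = 0.18). These fits leave out 5 of the 7 CD45- day 3 HT libraries, among them those highest in Il33. With library totals Il18 in CD45+ day 3 HT against CON was -0.044, and 414 of 1077 called genes were higher, against 637 of 800. Leaving out 1 library moved Casp1 in CD45+ day 3 HT against ABS between -0.10 and 0.077, with 0.017, 0.0017, 0.074 and 0.057 also above 0. It moved Il1r1 between fractions from -1.77 to 0.71 in day 7 HT, the latter without CD45- replicate 3, and from -1.65 to 0.11 in day 7 ABS, the latter without CD45- replicate 1. The causes were not tested. Counting leave-one-out fits apart, 322 of the members' log2 fold changes kept direction and side of the threshold, 15 passed it anew, 10 lost it and 5 turned.

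Numbers of called genes moved more. In CD45+ day 3 HT against CON they were 451 to 1256 (800 reported) and 338 to 1112 without 1 library, and in HT against ABS 365 to 1022 (558) and 275 to 861. For the CD45+ day difference they were 25, under the block, to 628 (301), and 30 to 533 without 1 library. In CD45- day 7 ABS against CON they were 0 to 398 (32), and 1 to 132 without 1 library. Over all alternatives, in CD45- day 3 they were 0 to 312 (10) for HT against CON and 0 to 451 (16) for HT against ABS. The day 3 difference between fractions gave 0 to 422 (238). Where edgeR called 0 genes, DESeq2 called at most 12, and the fit with no filter 8 to 165. Sparse counts limit Il33 and Il1r1, with 826 and 372 counts over 70 libraries.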
